A study of Mus musculus with 367 samples.

Results

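The coding Hox genes were examined in single cells of large mouse skin wounds. All 39 protein-coding genes whose GENCODE symbol is Hox followed by a cluster letter (a to d) and a number were taken, of 50600 genes measured, whatever their level. The cells came from square excisional wounds, 1.5 cm a side, on the back of Sm22-Cre;tdTomato mice of mixed background, 3 to 8 weeks old per the labels (the study's methods give a narrower range within this), and were collected on post-wounding day (PWD) 12, 15 or 21. In this genotype a promoter of the Sm22 gene (Tagln, a contractile protein of smooth muscle and myofibroblasts) drives Cre, and Cre switches on the red protein tdTomato. Every cell of every group carried both alleles, came from wounded skin and was sorted as viable and bright for tdTomato, so there is no unwounded, uninjured-region or tdTomato-negative group to set the Hox values against. Wound tissue of 2 to 3 mice was used at each time point, and the cells were loaded on microfluidic chips. PWD12 had 3 such captures, PWD15 had 2 and PWD21 had 2. It is not stated which mice went into which capture, so the p-values measure the spread between captures, which may be partly technical.

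Hox genes encode transcription factors that bind DNA through a homeodomain. They lie in 4 clusters, and genes at the same place in different clusters, the paralogues, share a number. The order of the genes along a cluster matches the order in which they are used along the body axis, low numbers toward the head and high numbers toward the tail and the ends of the limbs. Fibroblasts of adult skin keep a Hox pattern that tells the place on the body from which they came. In the GRCm38 build the HoxA cluster lies on chromosome 6, HoxB on chromosome 11, HoxC on chromosome 15 and HoxD on chromosome 2.

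Of the paralogues that lead the values below, 2 pairs are shown here by their homeobox, the 180 bases that encode the homeodomain, because a short-read value can be credited to 1 paralogue only as far as their sequences differ. Each lies within 1 exon and was read from GENCODE M21 transcripts in the direction of the gene, 5′ to 3′, and capitals mark the bases at which the members of a pair differ. Hoxc10 (chr15:102970848-102971027, plus strand) and Hoxa10 (chr6:52232554-52232733, minus strand) were identical at 80.6% of bases. Hoxc8 (chr15:102992571-102992750, plus strand) and Hoxd8 (chr2:74706525-74706704, plus strand) were identical at 73.3%.
Hoxc10: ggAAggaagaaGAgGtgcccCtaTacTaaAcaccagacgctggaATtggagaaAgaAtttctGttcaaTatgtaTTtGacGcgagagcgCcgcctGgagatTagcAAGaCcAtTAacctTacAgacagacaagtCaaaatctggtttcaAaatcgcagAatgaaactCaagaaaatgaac
Hoxa10: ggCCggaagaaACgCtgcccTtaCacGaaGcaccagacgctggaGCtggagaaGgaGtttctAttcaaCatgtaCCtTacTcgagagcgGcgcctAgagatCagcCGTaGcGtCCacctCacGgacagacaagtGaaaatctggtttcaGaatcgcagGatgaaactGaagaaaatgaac
Hoxc8: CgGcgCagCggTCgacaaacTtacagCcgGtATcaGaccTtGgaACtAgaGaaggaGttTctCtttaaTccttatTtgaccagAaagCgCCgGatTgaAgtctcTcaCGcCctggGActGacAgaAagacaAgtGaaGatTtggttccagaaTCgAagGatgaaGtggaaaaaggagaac
Hoxd8: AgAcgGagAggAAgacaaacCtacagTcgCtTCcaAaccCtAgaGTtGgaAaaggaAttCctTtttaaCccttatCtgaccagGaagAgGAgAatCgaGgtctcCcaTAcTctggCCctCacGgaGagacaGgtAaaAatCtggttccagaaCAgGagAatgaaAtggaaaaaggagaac
The members of the 2 pairs differed at 35 and 48 of these bases, and their longest identical runs inside the homeobox were 14 and 15 bases. Over whole transcripts, no pair of Hox genes shared a run longer than 52 bases except Hoxd3 with Hoxd4, which share a run of 388 bases, and Hoxc5 with Hoxc10, which share 168 bases because their annotated exons overlap on the same strand. Values of Hoxc5 are therefore uncertain where Hoxc10 is also present. The library kit does not keep the strand, so for Hoxb3, Hoxb2, Hoxa11 and Hoxa7 the reads in the 52.9%, 27.3%, 35% and 20.4% of exonic bases that they share with antisense genes cannot be told from reads of those genes.

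Of 367 captured cells, 292 were kept, 27 to 73 a capture, with a median of 953775 to 2329260 fragments a cell by capture, as estimated from the deposited values. FPKM (fragments per kilobase of transcript and per 1000000 fragments) is a level per length, so it can be compared between genes, and a gene was called detected in a cell above 0 FPKM. The cells were divided by 3 genes: 198 matrix cells (Col1a1, a fibrillar collagen, from 1000 FPKM, with low Rgs5 and Tyrobp), 57 mural cells (Rgs5, a pericyte gene, from 500 FPKM) and 26 myeloid cells (Tyrobp, an adaptor of myeloid receptors, from 500 FPKM), with 11 cells outside these limits. The lists of markers, which include these 3 genes, followed the names: 8 matrix fibroblast markers summed to 22333 to 42608 FPKM by capture in matrix cells and 5184 to 19905 in mural cells, 10 mural markers to 8445 to 10151 in mural and 24.5 to 58.1 in matrix cells, and 10 myeloid markers to 24429 to 39904 in myeloid and 6.56 to 74.2 in matrix cells. Tagln itself was detected in 52 to 82.4% of matrix, 75 to 100% of mural and 0 to 25% of myeloid cells by capture. Differences between kinds were compared within captures that held at least 3 cells of both, which left 5 captures for mural and 4 for myeloid cells.

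The matrix cells carried a Hox pattern centred on paralogue groups 8 to 10. Of the 39 genes, 9 were detected in at least 10% of the 198 matrix cells (Hoxa7, Hoxa9, Hoxa10, Hoxc6, Hoxc8, Hoxc9, Hoxc10, Hoxd8 and Hoxd11), 4 in 5 to 10% (Hoxb2, Hoxc4, Hoxc5 and Hoxc11), 14 in fewer than 5% and 12 in none. The 12 were Hoxa4, Hoxa11, Hoxa13, Hoxb8, Hoxb13, Hoxc12, Hoxc13, Hoxd1, Hoxd3, Hoxd4, Hoxd12 and Hoxd13. Of these, Hoxd3 and Hoxd4 share 53.1% and 39.1% of their exonic bases with the coding gene Gm28230 on the same strand. Reads in those bases may be credited to that gene, so the zeros of Hoxd3 and Hoxd4 are less certain. All members of groups 12 and 13, the genes of the tail end and the tips of the limbs, were among the 9 that no kept cell of any kind held, and 0 of 292 cells bounds the share with a member at 1.03%. Summed over genes, groups 8 to 10 made up 87.2% ± 6.19 (SD, n = 7 captures) of the Hox level in matrix cells, groups 1 to 4 made up 2.83% ± 2.21 and groups 11 to 13 made up 1.48% ± 1.07. Any gene of group 10 was detected in 75.8% of matrix cells, of group 8 in 63.6%, of group 9 in 51.5% and of group 11 in 27.3%, where 42 of the 54 cells held Hoxd11. The mean paralogue number, weighted by FPKM, was 8.74 ± 0.34 and stayed between 8.23 and 9.19 in the 7 captures.

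**Figure D1:**
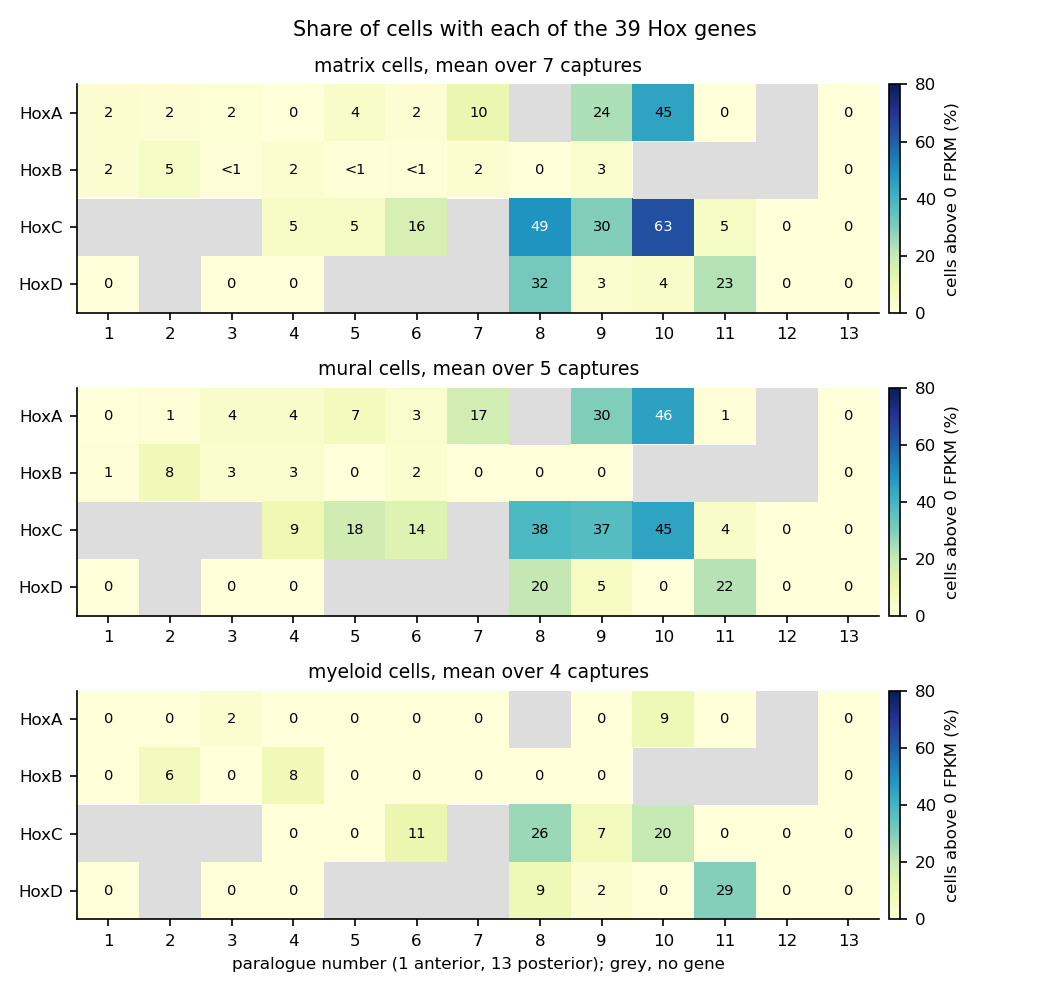
Share of cells above 0 FPKM (percent, colour scale and printed whole numbers) for each of the 39 Hox genes, as the mean over 7 captures of matrix, 5 of mural and 4 of myeloid cells. Rows are the clusters and columns the paralogue numbers, grey where a cluster has no gene of that number. The darkest squares of the matrix and mural panels lie in groups 8 to 10 of HoxA and HoxC with Hoxd8, the HoxB rows are pale, and the myeloid panel is darkest at Hoxd11 (29.3%).

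The clusters were used unequally. HoxC carried 41.8% ± 17.3 (SD, n = 7 captures) of the summed Hox level of matrix cells, HoxA 32.1% ± 17.6, HoxD 24.7% ± 8.60 and HoxB 1.32% ± 1.94. HoxC and HoxA overlapped between captures, HoxC ranging from 24.1 to 72% and HoxA from 11.9 to 62.4%, whereas the HoxB share reached at most 5.61%. Of the 10 HoxB genes, 8 were found in at least 1 matrix cell, but only 29 of the 198 cells held any, against 176 cells for HoxC, 127 for HoxA and 100 for HoxD. The summed level was steadier than its makeup, at 88.7, 66.1 and 75.4 FPKM in the PWD12 captures, 104 and 78.8 at PWD15 and 66.4 and 75.7 at PWD21. In both PWD21 captures HoxA led with 49.7 and 62.4%, and in the first PWD15 capture HoxC reached 72%, with a single cell of very high Hoxc10 described below.

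**Figure D2:**
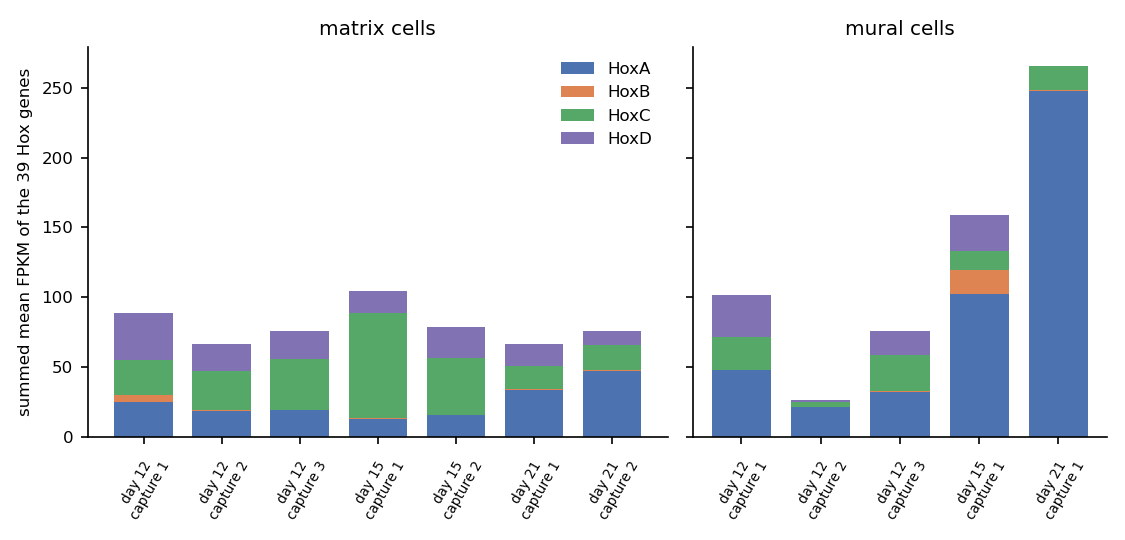
Mean summed FPKM of the Hox genes (linear axis from 0) in each capture, stacked by cluster, for the 7 captures of matrix cells and the 5 of mural cells. The matrix bars lie between 66.1 and 104 FPKM, and the mural bars spread from 25.9 to 266 with HoxA as the largest part in each. The bar of 266 is 72.6 FPKM without its highest cell.

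Hoxc10 (chr15:102966796-102971893), a gene of the lumbar and hindlimb level, was detected most often. It was present in 71, 76.9 and 82.4% of the matrix cells of the 3 PWD12 captures, in 50 and 63.6% at PWD15 and in 55.6 and 44.1% at PWD21, a mean of 63.4% ± 14.2 (SD, n = 7). It was the only member with a mean of at least 50%. Its mean level was 15.1, 20.4 and 21.7 FPKM at PWD12, 50.9 and 24.9 at PWD15 and 11.4 and 10.1 at PWD21. The value of 50.9 in the first PWD15 capture contained a single cell of 1585 FPKM, in which 2689 genes were detected, and was 19.6 without that cell. Hoxc8 (chr15:102990607-102994111), the other HoxC gene of high frequency, had a narrower range of levels: 6.05, 3.80 and 8.39 FPKM at PWD12, 11.4 and 9.43 at PWD15 and 3.91 and 4.25 at PWD21. It was detected in 48.8% ± 11.1 of matrix cells, from 34.6 to 64.7% by capture. Its share was below that of Hoxc10 in 5 of 7 captures.

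Hoxa10 (chr6:52231197-52240854), the paralogue of Hoxc10 in HoxA, was detected in 44.8% ± 12.5 of matrix cells, with capture means of 5.98, 7.69 and 11.1 FPKM at PWD12, 8.61 and 3.27 at PWD15 and 3.80 and 11.1 at PWD21. Hoxd8 (chr2:74704615-74707933) had the steadiest share of the 6 leading genes, 31.7% ± 4.11, and was high where present, with a median of 25.4 FPKM in the 63 cells that held it and at least 10 FPKM in 41 of them. Its capture means were 29.2, 8.25 and 18.5 FPKM at PWD12, 14.9 and 22 at PWD15 and 12.6 and 9.50 at PWD21. Hoxc9 (chr15:102976439-102985099) was about as frequent as Hoxd8, at 29.7% ± 6.67, but low, at 2.10 ± 1.54 FPKM. Hoxa9 (chr6:52223100-52231089), its paralogue, was detected in 23.6% ± 11.5 of matrix cells. In this order of shares Hoxa10 differed from Hoxc8, Hoxc9 from Hoxd8 and Hoxa9 from Hoxc9 by less than the SD between captures.

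The less frequent members were carried by few cells. Hoxc6, a thoracic gene, was detected in 15.7% ± 10.0 of matrix cells, from 3.23% in the first PWD12 capture to 30.8% in the second. Hoxa7 was detected in 10.4% ± 7.56, and its mean was 17.2 FPKM in the first PWD12 capture against at most 3.49 in the other 6. Hoxc11, Hoxb2 and Hoxc5 were detected in 5.19% ± 5.38, 5.11% ± 4.04 and 4.87% ± 4.65. Hoxd10, the HoxD paralogue of Hoxc10 and Hoxa10, was found in 7 matrix cells and in 5 of these at 10 FPKM or more, so that its capture means, 4.16, 10.8 and 0.606 at PWD12, 0.106 and 0 at PWD15 and 2.84 and 0 at PWD21, rested on 0 to 3 cells each. Hoxd11 stood apart from this pattern: it was detected in 22.6% ± 7.19 of matrix cells but at a mean of 0.26 ± 0.18 FPKM, the value was worth under 1.5 estimated fragments in 23 of its 42 cells, and its share was not above that of the myeloid cells (29.3% ± 21.7, n = 4). The Hoxd11 share is therefore not read as expression by matrix cells, and where these reads came from was not tested.

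Detection moved with depth for some members. Among matrix cells with at least 1000000 estimated fragments (139 cells) against those with fewer (59 cells), Hoxc10 was detected in 64.7 and 50.8%, Hoxa10 in 51.1 and 28.8%, Hoxd8 in 29.5 and 37.3% and Hoxc6 in 10.1 and 28.8%. The share of cells with at least 10 FPKM of Hoxc10 was 33.8 and 37.3%. The median number of Hox genes a cell was 3 in both. These cells were pooled over captures that differ in depth. The median of matrix cells was 970874 and 990538 fragments in the PWD15 captures and 2198906 and 2294010 in the PWD21 captures. Depth is therefore not separated from capture and day in these shares.

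**Figure D3:**
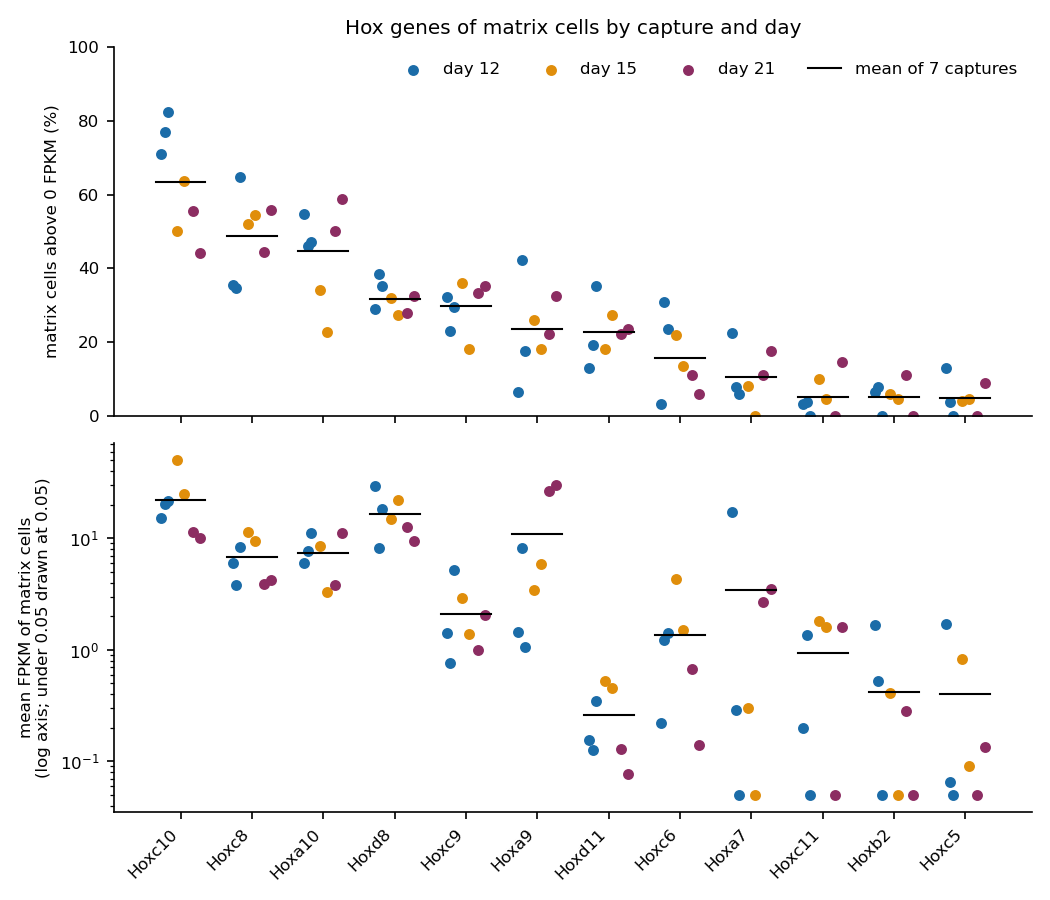
The 12 Hox genes most often detected in matrix cells, with 1 point for each of the 7 captures coloured by post-wounding day and a bar at their mean. The upper panel gives the share of cells above 0 FPKM (percent) and the lower panel the mean FPKM (log axis, values under 0.05 drawn at 0.05). The PWD12 points of Hoxc10 lie above the others in the upper panel, and the PWD21 points of Hoxa9, 26.5 and 30.3 FPKM, lie above all earlier ones in the lower panel.

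Single matrix cells held part of this pattern at a time. The number of Hox genes detected in a matrix cell ranged from 0 to 11 with a median of 3, and counting only values of at least 10 FPKM the median was 1. No Hox gene was detected in 5 of 198 matrix cells (2.53%, exact Clopper-Pearson 95% interval 0.825 to 5.79%, for counting error only). Hoxc10 was the highest Hox gene in 53 of the other 193 cells, Hoxd8 in 36, Hoxc8 in 23, Hoxa10 in 21 and Hoxa9 in 13, and 21 members led in at least 1 cell. For the 15 pairs of the 6 leading genes, the share of cells with 1 gene was set beside its share in cells without the other. The difference went the same way in all 7 captures only for Hoxa10 with Hoxc8: Hoxa10 was detected in 38.5% of the cells with Hoxc8 and in 50% of those without, at median depths of 1448310 and 1484070 fragments. Hoxa9 was detected in 14.3% of the cells with Hoxd8 and in 28.9% of those without, lower in 6 of 7 captures. It was detected in 30.7% of the cells with its neighbour Hoxa10 and in 19.1% of those without, higher in 6 of 7 captures, and there the median depths were 1752880 and 1253410 fragments, so depth moved with the pair. These are descriptions of cells that share captures, and the pairs were not tested.

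**Figure D4:**
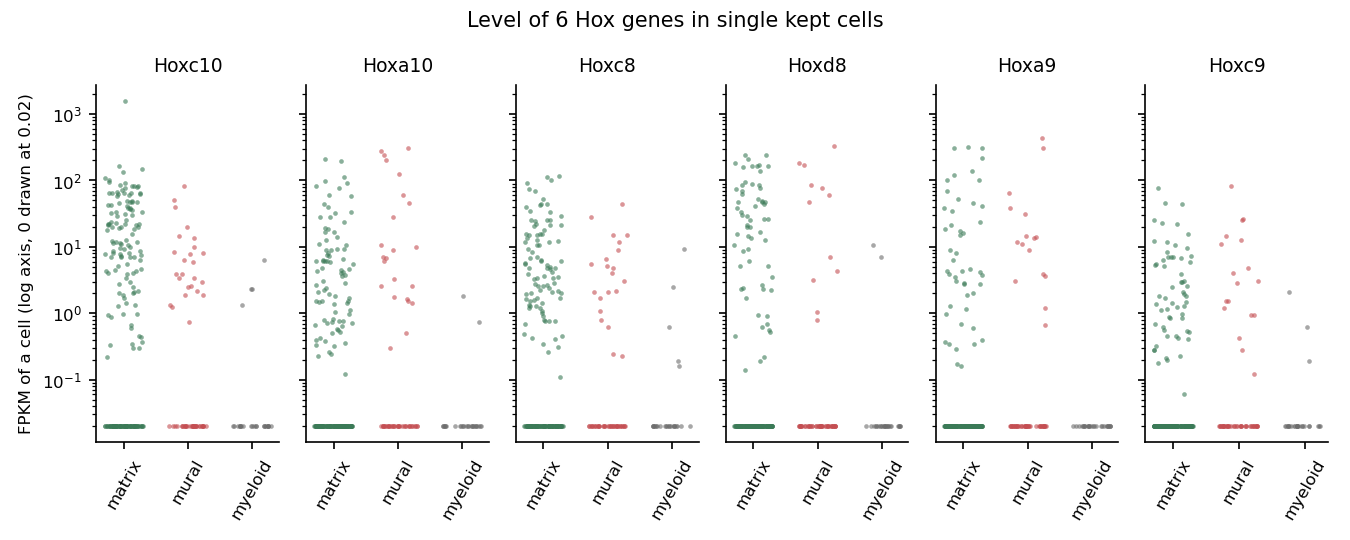
FPKM in each kept cell (log axis, 0 drawn at 0.02) of 6 Hox genes in matrix, mural and myeloid cells, with 1 point a cell. For each gene the points split between a row at 0 and a spread over several orders of magnitude, and no myeloid cell reaches above 10.7 FPKM.

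The first comparison asked whether the Hox pattern of matrix cells changed with time after wounding. The difference was estimated on the scale of log2(mean FPKM + 1) for each capture, with limma across 13552 genes of which 10 were Hox genes, and p-values adjusted (Benjamini-Hochberg) over all of them. For Hoxa9, a gene of the trunk that is also active in early blood cells, the captures read 1.44, 8.20 and 1.05 FPKM at PWD12, 3.45 and 5.88 at PWD15 and 26.5 and 30.3 at PWD21. Both PWD21 captures were above all 5 earlier ones, as they were for 3.92% of all genes tested. The share of cells with Hoxa9 showed no such order, at 6.45, 42.3 and 17.6%, then 26 and 18.2%, then 22.2 and 32.4%, so the higher mean came with higher values in the cells that held it. The share of cells with at least 10 FPKM of Hoxa9 was higher in both PWD21 captures than in all earlier ones, as for 2.99% of genes. Without the highest cell of each, the PWD21 captures read 9.26 and 21.8 FPKM. The log2 difference between PWD21 and PWD12 was 3.03 ± 0.88 (SE), which did not pass the test (limma adjusted p = 0.478), nor did that between PWD21 and PWD15, 2.41 ± 0.97 (adjusted p = 0.853).

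The share of matrix cells with Hoxc10 was lower in the later captures. It was present in 76.7% ± 5.69 (SD, n = 3) of matrix cells in the PWD12 captures and in 53.3% ± 8.31 (n = 4) in the later ones, and the groups did not overlap. The exact two-sided permutation test of this difference gave p = 0.0571, the smallest that 3 against 4 captures allow, and was 1 of 12 such tests. A share in which all PWD12 captures lay above all later ones was seen for 11% of all genes tested. Its mean FPKM was lower in both PWD21 captures than in all 5 earlier ones, as for 6.21% of genes, and so was the share of cells with at least 10 FPKM, as for 5.67%. For Hoxa10 and Hoxd8 that share was higher in all 3 PWD12 captures than in the later ones, as it was for 10.5% of genes. The PWD21 matrix cells had the deepest libraries, with medians of 2198906 and 2294010 fragments against 970874 to 2038644 in the others. The log2 differences of Hoxc10 were 0.89 ± 0.61 for PWD15 minus PWD12, -0.76 ± 0.61 for PWD21 minus PWD12 and -1.65 ± 0.67 for PWD21 minus PWD15, and none passed (limma adjusted p = 0.890, 0.824 and 0.865). The first of them changed sign, to -0.32, when values were averaged over cells on the log2 scale.

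None of the 10 Hox genes tested passed in any of the 3 day comparisons. The background was as low, since 0, 1 and 0 of 13552 genes passed (0%, 0.00738% and 0%). At an unadjusted p under 0.05, limma gave 0 Hox genes for PWD15 minus PWD12, Hoxa9 alone for PWD21 minus PWD12, and Hoxa9 higher with Hoxc10 lower for PWD21 minus PWD15. Over all 13552 genes the same limit gave 282 higher and 509 lower, 333 and 635, and 297 and 448, in the same order. The median difference of the 10 Hox genes was 0.37, -0.43 and -0.49, beside -0.10, -0.19 and -0.05 over all genes. For Hoxd10, the values given above gave a log2 difference of -2.13 ± 1.07 between PWD15 and PWD12 (adjusted p = 0.871).

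The second comparison set mural cells, a name used for the pericytes and smooth muscle cells of vessels, against the matrix cells of the same captures. Here the name rests on Rgs5 and the mural markers, and the place of these cells in the wound was not measured. The study counts RGS5-positive cells of day 12 wounds as fibroblasts and, by staining, places most of them away from vessels. Hoxc10 was detected in 55.6, 42.9 and 50% of the mural cells of the 3 PWD12 captures, in 38.9% of those of the first PWD15 capture and in 37.5% of those of the first PWD21 capture, each below the matrix cells of its capture. The mean levels in mural cells were 4.59, 1.51, 11.8, 3.99 and 1.14 FPKM in the same order, each also below the matrix value. The log2 difference was -2.27 ± 0.64 (SE), or -2.05 beyond the median difference of all genes, and did not pass (limma adjusted p = 0.124), but passed when log2 values were averaged over cells (-1.33, adjusted p = 0.0426). The share of cells was lower by 22.2 points on average (SD 10.4), lower in 5 of 5 captures, with an exact paired permutation p of 0.0625, the smallest that 5 captures allow, in 1 of 24 such tests. Of all 13823 genes, 6.41% were detected in a lower share of mural than of matrix cells in every capture. The members among them were Hoxc10 and Hoxd10, the latter found in no mural cell, so that it could only be lower. At a limit of 10 FPKM a lower share in every capture held for 5.95% of all genes and, among the members, for Hoxc10 alone.

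Hoxa10 had the opposite order of means, with 35.2, 12.0, 21.7, 21.0 and 34.9 FPKM in mural cells against 5.98, 7.69, 11.1, 8.61 and 3.80 in the matrix cells of the same captures. The log2 difference was 1.59 ± 0.60 (SE), higher in 5 of 5 captures, and did not pass (limma adjusted p = 0.258). The share of cells with Hoxa10 did not differ in the same way, being 44.4, 57.1, 35.7, 27.8 and 62.5% in mural cells and 54.8, 46.2, 47.1, 34 and 50% in matrix cells. Each mural mean leaned on its highest cell: without it the 5 captures read 1.46, 6.35, 1.74, 7.77 and 10.8 FPKM, above the matrix mean of all cells in 1 of 5. The matrix means kept their own highest cells, of 76.4, 90.1, 111, 207 and 16.9 FPKM. This count is therefore not a like comparison and does not decide the order of the 2 kinds.

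Hoxd10 was listed at 0 in the mural cells of all 5 captures, 0 of 57 cells, which bounds the share at 5.26%. It was found in 3.54% of matrix cells, so its absence from mural cells was not distinguishable at this number of cells. Hoxd10 reached the level for testing through the matrix cells alone and so could only be lower. Its limma adjusted p of 0.261 is given as a description. Hoxa7 averaged 1.84, 1.03, 6.38 and 3.21 FPKM in mural cells of the first 4 captures and 204 in the PWD21 capture, where 1 cell of 8 held 1619 FPKM. Without that cell the capture read 2.34, and the log2 difference of 1.66 ± 1.05 did not pass (adjusted p = 0.520). Hoxa5, a gene of the neck and upper thorax, differed by 1.18 ± 0.79 (adjusted p = 0.547) on 4 mural cells. Its mean over the matrix captures, 0.616 FPKM, was under the filter of 1 FPKM, so it was tested through the mural cells. Hoxd8 differed by -1.03 ± 0.75 (adjusted p = 0.581) and Hoxc8 by -0.93 ± 0.66 (adjusted p = 0.570). Hoxc5 was detected in a higher share of mural cells in 5 of 5 captures, by 13.5 points on average, as were 4.88% of all genes. Its mean over the matrix captures, 0.401 FPKM, was also under the filter, so it was among the genes tested through the mural cells. The exact paired p was 0.0625, the smallest possible, and the overlap of its exons with Hoxc10 applies here.

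**Figure D5:**
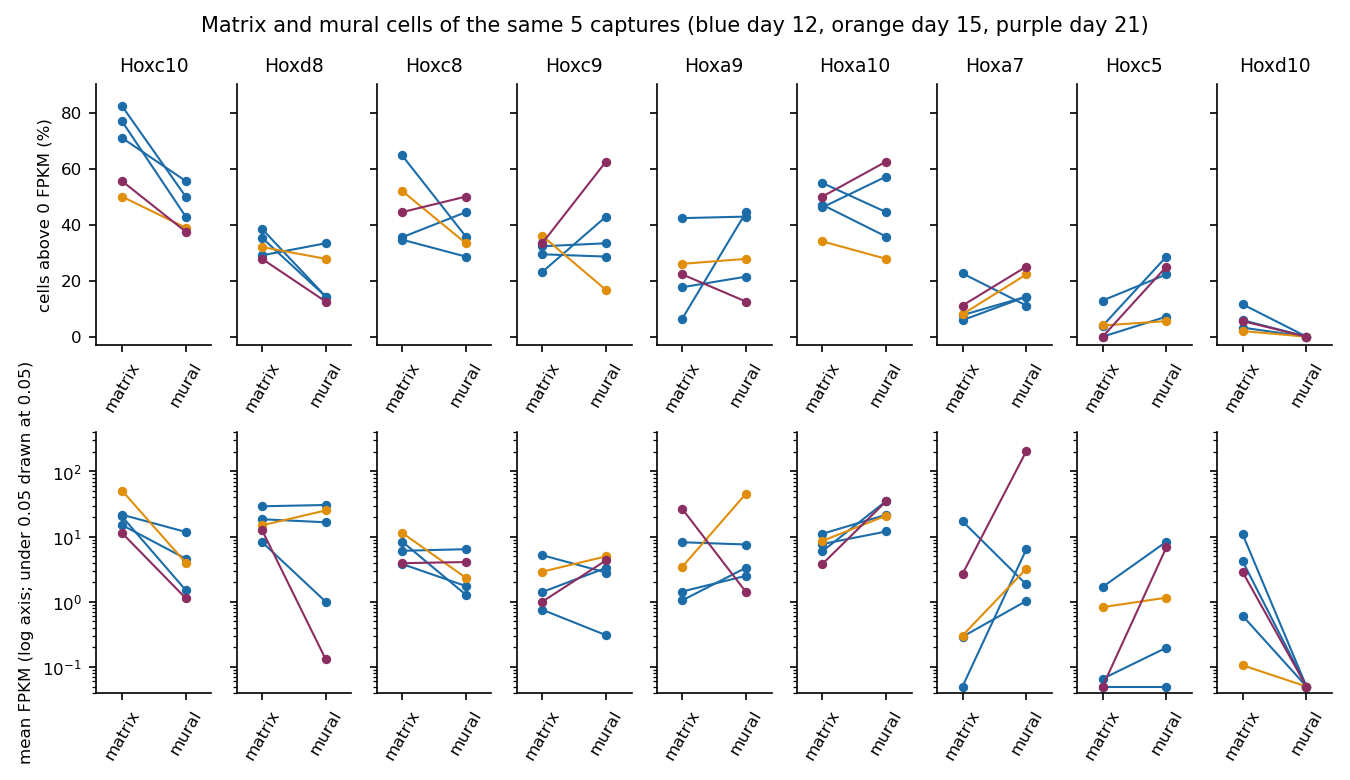
Matrix and mural cells of the same 5 captures for 9 Hox genes, with a line joining the values of each capture, coloured by day. The upper row gives the share of cells above 0 FPKM (percent) and the lower row the mean FPKM (log axis, values under 0.05 drawn at 0.05). The Hoxc10 lines slope down in both rows in all 5 captures, the Hoxa10 lines slope up in the lower row alone, and Hoxd10 is at 0 in all mural captures.

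None of the 14 Hox genes tested passed between mural and matrix cells, beside 131 genes (0.948%) that were higher and 105 (0.76%) that were lower over all 13823. At an unadjusted p under 0.05, limma gave 1 Hox gene higher (Hoxa10) and 2 lower (Hoxc10 and Hoxd10, the latter at 0 in all mural cells). At the same limit 660 of the 13823 genes were higher and 1316 lower, so these counts of Hox genes are not read as a result about them. The median difference was 0.30 over the 14 and -0.22 over all genes. The summed Hox level of mural cells was 102, 25.9, 75.4, 158 and 266 FPKM by capture, and its log2 ratio to matrix cells was 0.20, -1.35, 0.00, 0.60 and 2.0. HoxA made up 65.5% ± 21.6 (SD, n = 5) of the mural level. Both values leaned on single cells: in the PWD21 capture 1 cell of 8 summed to 1620 FPKM. Without the cell of highest summed level in each capture the levels were 49.8, 19.2, 59.6, 135 and 72.6 FPKM, the log2 ratios to all matrix cells -0.83, -1.78, -0.34, 0.38 and 0.13, and the HoxA share 21.6 to 72% by capture. Hoxb2, a gene of the hindbrain and neck level, was detected in 5 of the 18 mural cells of the first PWD15 capture and averaged 17.4 FPKM there, against at most 0.286 in the other mural captures. Mural cells carried 5184 to 19905 FPKM of the summed matrix markers, and the part of this in their Hox values was not tested.

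The third comparison set the myeloid cells against the matrix cells of 4 captures, given here in the order PWD12 capture 2, PWD15 capture 2, PWD21 capture 1 and PWD21 capture 2. The myeloid cells held little Hox RNA. Their summed Hox level was 2.01, 8.31, 0.820 and 0.353 FPKM, against 66.1, 78.8, 66.4 and 75.7 in the matrix cells of the same captures. A myeloid cell had a median of 1 Hox gene, with 0 genes in 10 of 26 cells (38.5%, exact 95% interval 20.2 to 59.4%), although the median depth of 2089940 fragments was above the 1467520 of matrix cells. Of the 39 genes, 28 were in none of the 26 cells, where a count of 0 bounds the share at 11.5%.

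Among the Hox genes tested, Hoxc10 and Hoxa9 passed as lower in myeloid cells, and both calls rested on the settings of the fit. Hoxc10 averaged 0.120, 2.18, 0.468 and 0 FPKM against 20.4, 24.9, 11.4 and 10.1, a log2 difference of -3.46 ± 0.86 (SE), or -2.46 beyond the median difference of all genes, and passed (limma adjusted p = 0.0405). Hoxa9 was listed at 0 in all 4 myeloid captures, against 8.20, 5.88, 26.5 and 30.3 FPKM in the matrix cells (adjusted p = 0.0286). Hoxa9 reached the level for testing through the matrix cells alone and so had to differ. Hoxc10, Hoxd8, Hoxa10 and Hoxc8 averaged 0.691, 0.685, 0.130 and 0.789 FPKM over the myeloid captures, under the filter of 1 FPKM. They too were tested through the matrix cells, where they are high. The calls of Hoxa9 and Hoxc10 are given as descriptions. With no filter on low values neither passed (adjusted p = 0.182 for Hoxc10 and 0.190 for Hoxa9), nor did any of the 25 Hox genes then tested or any of 24111 genes as lower. Neither passed when any single capture was left out, with adjusted p from 0.0501 to 0.0963 for Hoxa9 and from 0.0656 to 0.118 for Hoxc10. Without the capture as a block, 4 of the 6 passed, Hoxd8 and Hoxa10 being added. Of 13059 genes, 640 (4.9%) were lower and 221 (1.69%) higher, and the 2 lower among 6 Hox genes stand beside this and beside a median difference of -1.0 over all genes. Hoxd8 differed by -3.11 ± 0.85 (adjusted p = 0.0510), Hoxa10 by -2.61 ± 0.80 (adjusted p = 0.0701) and Hoxc8 by -2.06 ± 0.79 (adjusted p = 0.123), and these did not pass. Detection was lower in myeloid cells of every capture for Hoxa9, Hoxc10 and Hoxd8 among the 6, as it was for 21.2% of all genes. At a limit of 10 FPKM it was lower in every capture for 5 of the 6 (these with Hoxa10 and Hoxc8), again beside 21.2% of all genes.

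The summed Hox level and the matrix markers of the myeloid cells were highest in the same capture and lowest in the same capture. The capture with the highest summed Hox level, 8.31 FPKM in the second PWD15 capture, also had the highest sum of matrix markers, 15498 FPKM, and the capture with the lowest, 0.353 FPKM in the second PWD21 capture, had the lowest, 92.6 FPKM. Between them, the PWD12 capture had 2.01 and 911 FPKM and the first PWD21 capture 0.820 and 4984 FPKM, so the middle captures did not follow this order. The 16 myeloid cells with a Hox gene had a median of 93.5 FPKM of matrix markers and the 10 without had 21.8, and their median depths were 2263420 and 1468340 fragments, so depth moved with both. The part of matrix RNA and of depth in these Hox values was not tested.

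Hox proteins bind DNA together with TALE homeodomain cofactors, and their on and off states are kept by Trithorax and Polycomb proteins. Of 9 TALE genes, none of 6 tested passed between mural and matrix cells, and 2 of 7 were lower in myeloid cells, Meis1 (log2 difference -4.81, adjusted p = 0.0289) and Pknox1 (-3.31, adjusted p = 0.0398). The highest levels in matrix cells were those of Meis1 at 60.9 FPKM and Meis2 at 27.3, detected in 63.6 and 72.7% of the cells beside 60.6% for Hoxc10. Of 22 Polycomb and Trithorax genes, none of 20 tested passed for mural cells and 1 of 19, Ezh2, the histone methyltransferase of Polycomb, was lower in myeloid cells (-3.30, adjusted p = 0.0435). Those with the highest level in matrix cells were Rnf2, Kdm6b and Ezh2, at 26, 22.9 and 22.6 FPKM. In none of these lists did a gene pass between days. The lower genes of myeloid cells in these lists stand beside the 4.9% of all genes that were lower there and the median difference of -1.0. Pknox1 and Ezh2 averaged 0.170 and 0.518 FPKM over the myeloid captures, under the filter of 1 FPKM. They were tested through the matrix cells, where they are higher, so these 2 calls are given as descriptions. With no filter on low values 0 genes passed as lower in myeloid cells, so the call of Meis1 also rested on the filter.

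The list of 15 other factors that mark body regions was led in matrix cells by genes of trunk and limb mesenchyme. Prrx1 (55.2 FPKM), Prrx2 (30.4) and Tbx15 (24.7) had the highest levels, and En1, which marks a fibroblast lineage of the back, was detected in 65.7% of them. Tbx4 and Pitx1, hindlimb genes, were each in 2.02% of matrix cells, Tbx5, a forelimb gene, in 1.01%, and Cdx1 and Cdx2, which act upstream of Hox genes in the tail, in none. Of the 5 tested, Prrx2 alone passed between mural and matrix cells, beside the 0.76% of all genes that were lower. It read 0, 0, 0.609, 1.63 and 2.07 FPKM in mural cells. The matrix cells of the same captures read 8.97, 19.5, 42.5, 80.5 and 34.3. The log2 difference was -4.18 ± 0.62 (limma adjusted p = 0.00862). The mural mean of Prrx2, 0.862 FPKM, was under the filter of 1 FPKM. It was tested through the matrix cells, where it is high, so this call is given as a description. In myeloid cells Tbx15, Prrx1 and Prrx2 were lower (adjusted p = 0.0468, 0.0447 and 0.0482), beside the same 4.9%.

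Of 43 noncoding genes annotated within the clusters, 4 to 6 reached the level for testing and none passed. Hoxb3os, chosen after its values were seen and under that level, was detected in 33.3, 42.9, 35.7, 5.56 and 25.0% of the mural cells of the 5 captures against 0, 0, 0, 4 and 0% of their matrix cells, and in no myeloid cell of the 4 captures. Its mean was 1.18 FPKM in mural and 0.0795 in matrix cells. It lies antisense to Hoxb2 and Hoxb3 and shares exons with both, and since the kit does not keep the strand, reads in the shared bases cannot be told apart. Hoxb3 itself was detected in 3.51% and Hoxb2 in 12.3% of mural cells.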

How the data were processed

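Single cells were captured with the Fluidigm C1 system and made into full-length SMART-seq libraries with Nextera indexes. The authors aligned reads with Bowtie 1.0.0 to mm10 and quantified GENCODE M13 genes with RSEM. The deposited values are FPKM for each cell and gene, 1 column a cell, with no counts and no pooling of replicates. Capture under a microscope selected single cells, and no doublet caller was run.

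Gene identifiers were matched to GENCODE M21 (GRCm38), 50376 of 50600. Fragments per cell were estimated from the steps of the FPKM values by a procedure tested on simulated data. Of 367 cells, 75 were left out: under the minimum of aligned reads that the study set (25 cells), without an estimate (2), or over 11000 genes or 15% mitochondrial FPKM. No cells had identical values. Kinds were set by the limits Col1a1 1000, Rgs5 100 and Tyrobp 50 FPKM for matrix cells, Rgs5 500 for mural and Tyrobp 500 for myeloid cells. The replicate was the capture. Means over at least 3 cells entered limma 3.58.1 (R 4.3.3, variance trend) as log2(mean FPKM + 1), genes averaging under 1 FPKM being dropped, with the capture as a block between kinds and day as the term in matrix cells, and Benjamini-Hochberg adjustment at 0.05. The pseudocount makes fold changes of low genes too small. Shares of cells were compared with exact permutation tests (scipy 1.17.1). Capture numbers do not pair captures of different days: the correlation of deviations between days ran from -0.03 to 0.03. The coding Hox genes and the lists of other genes were chosen with earlier results of these data known. Named with values were the 12 Hox genes most often detected in matrix cells, those past the test, and the 3 with the largest difference in either direction between mural and matrix cells. Of the other lists, genes past the test and the 3 highest in matrix cells were named, apart from 1 that is not reported here. Alternatives were the pseudocount, the filter, the averaging, the TPM scale, the cell filters, the kind limits, the variance trend, the detection limit, the replicate block and each capture left out. Capture means, and the summed Hox level of mural cells, without their highest cell were added as an alternative after seeing the data.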

Additional observations from a re-analysis of the deposited data

Results flagged for a closer look

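Of 37 sets of 4 to 7 captures, 11 held a Hox mean that stood apart from the others by Dixon's criterion. Its chance rate of about 1 in 20 sets holds for normally distributed values. Means that lean on single cells need not be so distributed, and the 11 are not read as an excess over chance. Hoxc11 in mural cells was above 0 in 1 capture only, so its flag was fixed in advance. Among matrix cells these were Hoxc10 at 50.9 FPKM and Hoxc6 at 4.35 FPKM in PWD15 capture 1 (next highest 24.9 and 1.49), Hoxa7 at 17.2 and Hoxb2 at 1.66 FPKM in PWD12 capture 1 (next 3.49 and 0.524), and Hoxd10 at 10.8 FPKM in PWD12 capture 2 (next 4.16). Without their highest cells, the Hoxc10 value was 19.6 and the Hoxa7 value 11.7 FPKM. Among mural cells Hoxa9 stood at 45.9 and Hoxb2 at 17.4 FPKM in PWD15 capture 1 (next 7.56 and 0.286), Hoxa7 at 204 FPKM in PWD21 capture 1 (next 6.38) and Hoxc11 at 9.78 FPKM in PWD12 capture 3 (the others at 0). Without the highest cell of each these read 23.3, 4.32, 2.34 and 0.0331 FPKM. Among myeloid cells Hoxc8 stood at 3.1 and Hoxa10 at 0.453 FPKM in PWD15 capture 2 (next 0.032 and 0.0682), the capture with the highest matrix markers in its myeloid cells.

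The 11 kept cells outside the limits of the 3 kinds were in no comparison. Hoxd8 was detected in 63.6% and Hoxc8 in 36.4% of them, where a count of 0 would have allowed up to 27.3%. The 7 cells with Hoxd8 carried 13995 to 42890 FPKM of the summed matrix markers (median 31816). The 4 without carried 446 to 2212 FPKM, and they were the 4 cells with at least 100 FPKM of summed Schwann cell markers. Hoxc8 did not follow this split, being in 2 of these 4 cells and in 2 of the other 7. The part of matrix RNA and of cell type in these shares was not tested.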

How the results depend on the processing

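None of the Hox genes passed between mural and matrix cells under the alternatives except 1, Hoxc10 (-1.33, adjusted p = 0.0426), when log2(FPKM + 1) was averaged over cells, a setting under which more of all genes passed (289 higher and 368 lower). The 2 lower Hox genes of myeloid cells became 4 with a pseudocount of 0.1, 4 on the TPM scale and 4 with no replicate block, 1 with log2 values averaged over cells and 1 with all cells of a kind, and 0 with a pseudocount of 10, 0 with no filter on low values, 0 with profiles of at least 5 cells and 0 to 0 with each capture left out. No Hox gene passed between days, with the replicate block (0 in each of the 3 comparisons) or under any other alternative run. The difference of Hoxc10 between PWD15 and PWD12 turned from 0.89 to -0.32 with log2 values averaged over cells, and the cause was not tested. The number of Hox genes in at least 50% of matrix cells was 0 at a detection limit of 10 FPKM and 1 to 2 with each capture left out, and 14 instead of 9 were in no kept cell at that limit. The median number of Hox genes a matrix cell, averaged over captures, was 3.07 above 0 FPKM, 2.43 from 1 FPKM and 1.21 from 10 FPKM. Of the differences of single genes, 270 kept their direction and side of the threshold, 16 no longer passed, 7 newly passed and 1 turned. Depth limits the low genes: a value under 1 FPKM often rested on about 1 fragment, and the 26 myeloid and 57 mural cells bound what a count of 0 can show.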

Other observations

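Several Hox genes were seen in very few cells and belong to no comparison. Hoxd4, a gene of the neck level, was found in 2 of the 11 cells outside the 3 kinds, at up to 0.52 FPKM, and in no matrix, mural or myeloid cell. Hoxa4 was found in 2 mural cells and Hoxa11 in 1, at up to 26.9 and 16.5 FPKM, and neither was in a matrix cell. Hoxa2 was at 424 FPKM in 1 mural cell and at up to 77.2 FPKM in 3 matrix cells. Hoxb9 was in 7 matrix cells, 1 of them at 78.1 FPKM.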
